A study of Mus musculus with 18 samples.

Results

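Macrophages were compared after 30 and after 20 min of lipopolysaccharide (LPS), to see which transcripts were still climbing and which had already passed a peak in the last 10 min of a 30 min time course. The comparison takes 6 of the 18 Affymetrix arrays of the series, chosen by their labels: 3 of LPS for 30 min and 3 of LPS for 20 min, each at 100 ng/ml. The array at 30 min was paired with the array at 20 min of the same replicate number, since each number is a whole experiment of its own, here called experiments 1, 2 and 3. The 3 arrays of LPS for 10 min and the 9 arrays of LPS plus IL-10 at 10 ng/ml for 10, 20 and 30 min entered the same fit and are quoted where they bear on the comparison. All cells derived from bone marrow of mice lacking IL-10 (genotype IL-10-/-) and had 7 days in culture with CSF-1 from L cells, and were then scraped, replated and treated without CSF-1. Age and sex were matched between experiments but not stated, and no untreated or wild-type cells were analysed here, so a difference between 30 and 20 min cannot be tied to LPS apart from time in fresh medium.

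LPS, a component of the outer membrane of Gram-negative bacteria, is sensed by the receptor TLR4, which switches on NF-kB and the MAP kinases. The first genes to answer need no new protein synthesis: cytokines and chemokines that call in other cells, transcription factors of the immediate early class, and inhibitors that feed back on the same pathways. IL-10, which macrophages themselves make in response to LPS, acts through STAT3 to hold this response down, and the cells studied here could not make it.

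The macrophage label was borne out: all 18 markers of the type were measured on these arrays. The receptor genes Csf1r and Adgre1 gave signals of 19736 to 43021 and of 9900.1 to 26042 over the 18 arrays. The array median was reached on at least 3 arrays by 27110 of the 45101 probe sets, 64 controls set aside. Of the 10 lymphocyte markers on the array 4 reached it, as did 3 of 5 erythroid markers. The brightest of these were Cd79b and Epor, with medians of 148 and 118, while Cd79a and Alas2 had medians of 32.2 and 9.65. The summed lymphocyte marker signal was 401 to 490.4 at 30 min and 542 to 931 at 20 min, with no overlap, and the erythroid sums overlapped, at 173 to 284 at 30 min and 203 to 514 at 20 min. The lymphocyte markers were dim, and the 20 min arrays of experiments 2 and 3 had raised low-end signals, given below. Whether the gap reflects a difference in cells was not tested. Of 10 stromal markers 8 reached that level. Acta2 and Col1a2 were the brightest, at 2439.8 to 6903 and at a median of 994.5, while Lum and Thy1 had medians of 40.3 and 34.8. The summed stromal signal was 4952 to 8785 at 30 min and 5358 to 10190.5 at 20 min. Of 12 granulocyte markers 11 reached it. The brightest, S100a8, had a signal of 2757 to 7701, while Elane and Cxcr2 had medians of 118 and 14.9. The summed signal of the granulocyte markers was 8055 to 16094 at 30 min and 8943 to 14448 at 20 min, ranges that overlapped. Of 9 dendritic cell markers 6 reached it, with medians of 5073.5 for Bst2 and 14.9 for Ccr7. Their sums overlapped, at 5319 to 12079 at 30 min and 4126 to 11816 at 20 min. The part of such cells in the results was not tested. Il10, the gene targeted in these mice, gave signals of 1313, 1138 and 1960.4 at 30 min, against 602, 861 and 1305 at 20 min in experiments 1, 2 and 3. The labels do not say which stretch of Il10 was disrupted, and the probes may lie outside it, so these signals are no check of the genotype. The LPS arrays at 20 min of experiments 2 and 3 stood apart, with lower quartiles of signal of 38.7 and 34.1, against 21.9 to 31.1 on the other 16 arrays. Their median rank correlations with the other arrays were 0.921 and 0.908, against 0.925 to 0.943.

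Dim probe sets differed between the experiments. The 27110 probe sets tested were divided by mean level into 4 bands of about 6778. In the dimmest band the median difference, 30 minus 20 min, was -0.022 in experiment 1, -0.41 in experiment 2 and -0.38 in experiment 3, on the scale of log2(signal + 16) used throughout. In the brightest band it was -0.022, 0.066 and 0.028. As a body the dimmest lay lower at 30 min in experiments 2 and 3, which hold the unusual 20 min arrays, and not in experiment 1. With LPS plus IL-10, which uses neither of those arrays, the dimmest band was at 0.051, -0.14 and -0.25 in experiments 1, 2 and 3. For this reason a probe set is called bright here when its mean log2 signal was at or above 8.79, which is a signal of about 428 and the 75th percentile of all probe sets, and bright probe sets are examined experiment by experiment. There were 11260 such probe sets. The 30 and 20 min signals did not overlap in 3.75% of them with 30 min higher and in 1.77% with 30 min lower, against 2.92% and 4.7% of all probe sets tested.

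**Figure D1:**
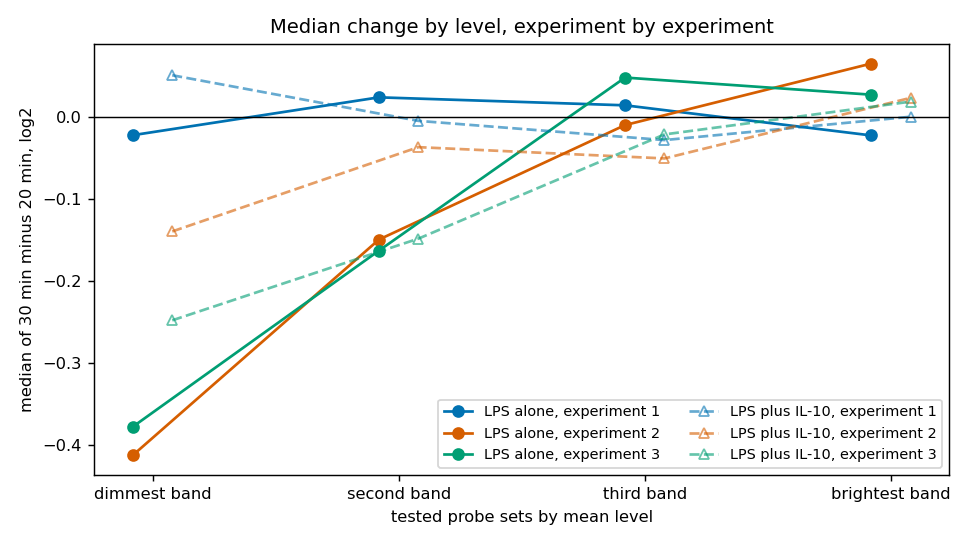
Median difference, 30 minus 20 min on the log2(signal + 16) scale (vertical axis), in 4 bands of the tested probe sets ordered by mean level (horizontal axis), with 1 line per experiment for LPS alone (filled circles) and LPS plus IL-10 (open triangles). The dimmest band lies at -0.41 and -0.38 in experiments 2 and 3 of LPS alone and at -0.022 in experiment 1. With LPS plus IL-10 it lies at -0.14 and -0.25 in experiments 2 and 3 and at 0.051 in experiment 1.

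Between 20 and 30 min 4 transcripts of the inflammatory response and its control rose, those of the chemokine gene Cxcl1, the cytokine genes Tnf and Tnfsf9 and the phosphodiesterase gene Pde4b, by 2.06 to 3 times, and 1 dim transcript, Nlrp6, fell. With LPS alone Nlrp6 reached the array median only at 20 min. It thus entered the test through the group where it was high, and its 30 min signals were near the floor. In RNA of whole cultures, more transcript per cell and more cells with the transcript cannot be told apart. These 5 probe sets were 0.0184% of the 27110 tested (limma with the experiment as a block, and a Benjamini-Hochberg adjusted p under 0.05), 0.0148% higher and 0.00369% lower. Without adjustment 3562 probe sets had a p under 0.05, against 1355.5 expected by chance, and among them the bright ones were 1144 higher and 620 lower while the dimmer ones were 582 higher and 1216 lower. The calls rested on pairing the arrays: without the block 0 probe sets passed, with 1303 at an unadjusted p under 0.05. After quantile normalisation, and likewise after cyclic loess, 2 were higher and 1 lower. Leaving out experiment 1, experiment 2, or the 30 min array of experiment 2 or of experiment 3 left 0 calls, and leaving out the 20 min array of experiment 1 gave 24.

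**Figure D2:**
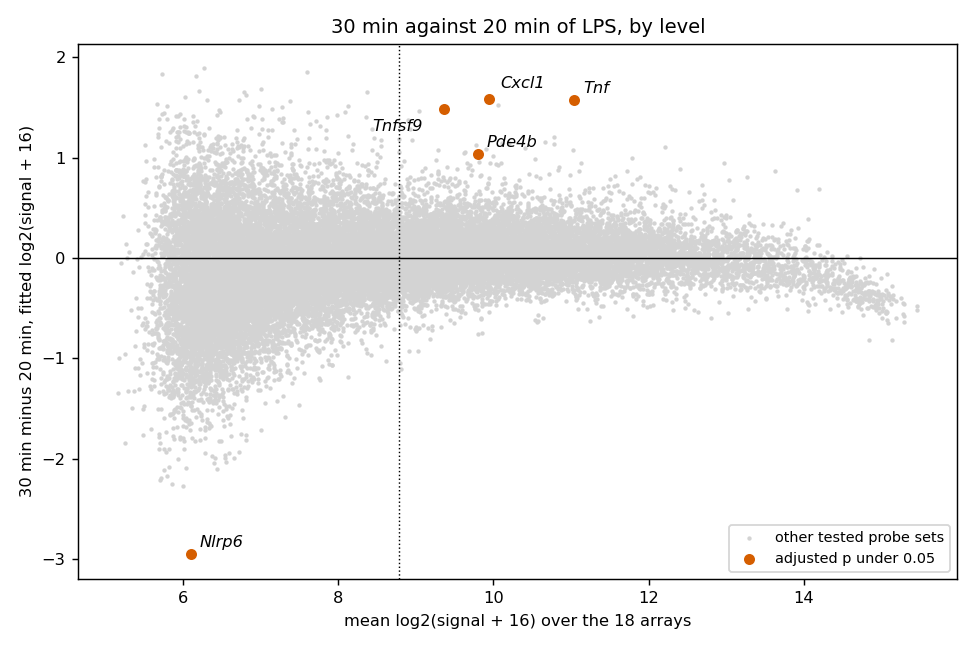
Fitted difference, 30 minus 20 min of LPS (vertical axis, log2(signal + 16)), against mean level over the 18 arrays (horizontal axis, same scale) for every tested probe set, with the 5 that passed in orange and the limit for bright probe sets at 8.79 dotted. Cxcl1, Tnf, Tnfsf9 and Pde4b stand among the bright probe sets and Nlrp6 at the dim end, where the grey cloud itself reaches lower than it reaches high.

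Cxcl1 and Cxcl2 encode chemokines that attract neutrophils through the receptor CXCR2, and their genes lie side by side on chromosome 5. The second-brightest of 3 Cxcl1 probe sets gave 2103, 6490.5 and 2282 at 30 min in experiments 1, 2 and 3, against 717, 1777 and 875 at 20 min. The groups did not overlap, and the experiment with the highest value at 20 min was also the highest at 30 min. Cxcl1 averaged 3625 ± 2483 at 30 min and 1123 ± 572 at 20 min (SD, n = 3 each), a log2 fold change of 1.59 (SE 0.24, limma adjusted p = 0.0253). The brightest Cxcl1 probe set gave 1.53 (limma adjusted p = 0.0718) and the third 0.73 (0.179), so the 3 shared their direction while only the second passed. Its step from 10 to 20 min was 1.43, and the last step differed from it by 0.16 (95% interval -0.72 to 1.03). The 2 steps share the 20 min arrays.

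Cxcl2 had a smaller last step than the one before. Its signals were 17488, 23138 and 18047 at 30 min, against 10797, 12138 and 11086 at 20 min, with no overlap and with little spread between the experiments at either time. The log2 fold change of 0.78 did not pass (SE 0.19, limma adjusted p = 0.179). The step from 10 to 20 min had been 1.69, and the difference between the steps, -0.91, had a 95% interval of -1.62 to -0.21 and an adjusted p of 0.272. Both chemokine promoters are shown because they carry the same 10 letters of the NF-kB type, GGGAATTTCC, at 71 and 97 bases before the annotated start. The windows are from RefSeq (GRCm38.p6), 250 bases before to 50 after the start, on the plus strand at chr5:90890995-90891294 and chr5:90903649-90903948, with matches to the NF-kB type motif in capitals. The motif searched on both strands was GGG, any 3 bases, then TTCC, and matches on the 2 strands overlap in the run GGGAATTTCCC.
Cxcl1: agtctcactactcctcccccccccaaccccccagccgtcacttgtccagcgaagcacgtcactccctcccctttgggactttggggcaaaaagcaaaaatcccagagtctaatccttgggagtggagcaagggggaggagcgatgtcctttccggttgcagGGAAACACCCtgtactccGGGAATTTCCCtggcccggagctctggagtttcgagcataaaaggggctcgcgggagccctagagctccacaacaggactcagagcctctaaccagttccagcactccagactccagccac
Cxcl2: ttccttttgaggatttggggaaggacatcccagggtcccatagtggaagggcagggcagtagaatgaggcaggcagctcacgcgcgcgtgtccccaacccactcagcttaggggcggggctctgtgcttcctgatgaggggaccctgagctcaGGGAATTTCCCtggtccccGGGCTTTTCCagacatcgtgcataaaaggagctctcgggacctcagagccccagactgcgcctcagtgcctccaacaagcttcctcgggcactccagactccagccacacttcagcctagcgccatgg
The motif stands in 5.56% of the 32851 promoter windows of this length.

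Tnf encodes the cytokine TNF, an early alarm signal of macrophages. Its signals were 7736, 9683 and 2339.8 at 30 min in experiments 1, 2 and 3, against 4493, 3484 and 411 at 20 min. The ranges overlapped because experiment 3 was low at both times, but within each experiment the 30 min array was the higher one. The difference within experiments was 0.78, 1.47 and 2.46, smallest where the level at 20 min was highest. Fitted, it was 1.57 (SE 0.23, limma adjusted p = 0.0224), and without experiment 3 it was 1.13 with an adjusted p of 0.127. The step from 10 to 20 min was 0.69, and the last step was steeper by 0.89 (95% interval 0.044 to 1.73, adjusted p = 0.341). The Tnf promoter, on the minus strand at chr17:35201958-35202257, is shown for contrast with the chemokines: it has no match to the NF-kB type motif in this window. It holds the TATA box letters TATAAA, in capitals, 29 bases before the start. Only these exact letters were searched, so the run cataaaa in both chemokine windows was no match.
Tnf: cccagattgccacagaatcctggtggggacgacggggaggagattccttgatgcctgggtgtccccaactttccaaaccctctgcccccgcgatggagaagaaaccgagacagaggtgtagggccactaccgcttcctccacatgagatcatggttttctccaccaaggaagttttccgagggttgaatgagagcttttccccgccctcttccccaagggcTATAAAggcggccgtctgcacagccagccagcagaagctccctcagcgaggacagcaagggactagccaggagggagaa
The letters TATAAA occur in 13.6% of all windows.

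Tnfsf9, which encodes the ligand of the T cell costimulator 4-1BB, rose in the last 10 min after no such step between 10 and 20 min. Its signals were 1226, 1889 and 772 at 30 min, against 555, 401 and 341 at 20 min and 731, 280.3 and 338 at 10 min. The 30 and 20 min arrays did not overlap, whereas those of 20 and 10 min did. The log2 fold change was 1.48 from 20 to 30 min (SE 0.24, limma adjusted p = 0.0422) and 0.04 from 10 to 20 min. The contrast between the 2 steps was 1.44 (95% interval 0.57 to 2.31) and did not pass over all probe sets (adjusted p = 0.213). The call of Tnfsf9 was kept in 4 of 20 other settings, with log2 fold changes of 1.10 to 1.72.

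Other inflammatory genes were higher at 30 min without passing. Il1b, the gene of interleukin-1 beta, gave 256, 1049 and 1167 at 30 min, against 109, 407 and 524 at 20 min. The rank of the experiments was the same at both times and the difference was close to 1 log2 unit in each (1.12, 1.33 and 1.13; limma adjusted p = 0.208). Ptgs2, the gene of the cyclooxygenase that inflammation induces, gave 479, 1082 and 329.6, against 241, 287 and 178 (log2 fold change 1.21, limma adjusted p = 0.227), with no overlap, and its other probe set gave -0.070. The chemokine gene Ccl3 gave 0.57 and Ccl4 0.48, Ccl4 lying lower at 30 min in experiment 1 (-0.17). Of the 28 genes in the list of inflammatory cytokines and chemokines 21 were tested: 15 had a higher and 6 a lower fitted value at 30 min, with a median of 0.26. Tnf and Tnfsf9 passed, and the Cxcl1 probe set that passed was not the one that stands for the gene in these counts. The list's median was 0.076 with both unusual 20 min arrays left out, and 0.43 after quantile normalisation. Over all 12527 genes with a tested probe set 45.6% were higher and 54.4% lower, with a median of -0.028; of the 6824 whose probe set was bright 53.3% were higher. In 9 of the 21 (42.9%) all 3 experiments were higher at 30 min, among them Cxcl10 and Ccl7, against 12.3% of all genes, and Cxcl11 was lower in all 3.

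**Figure D3:**
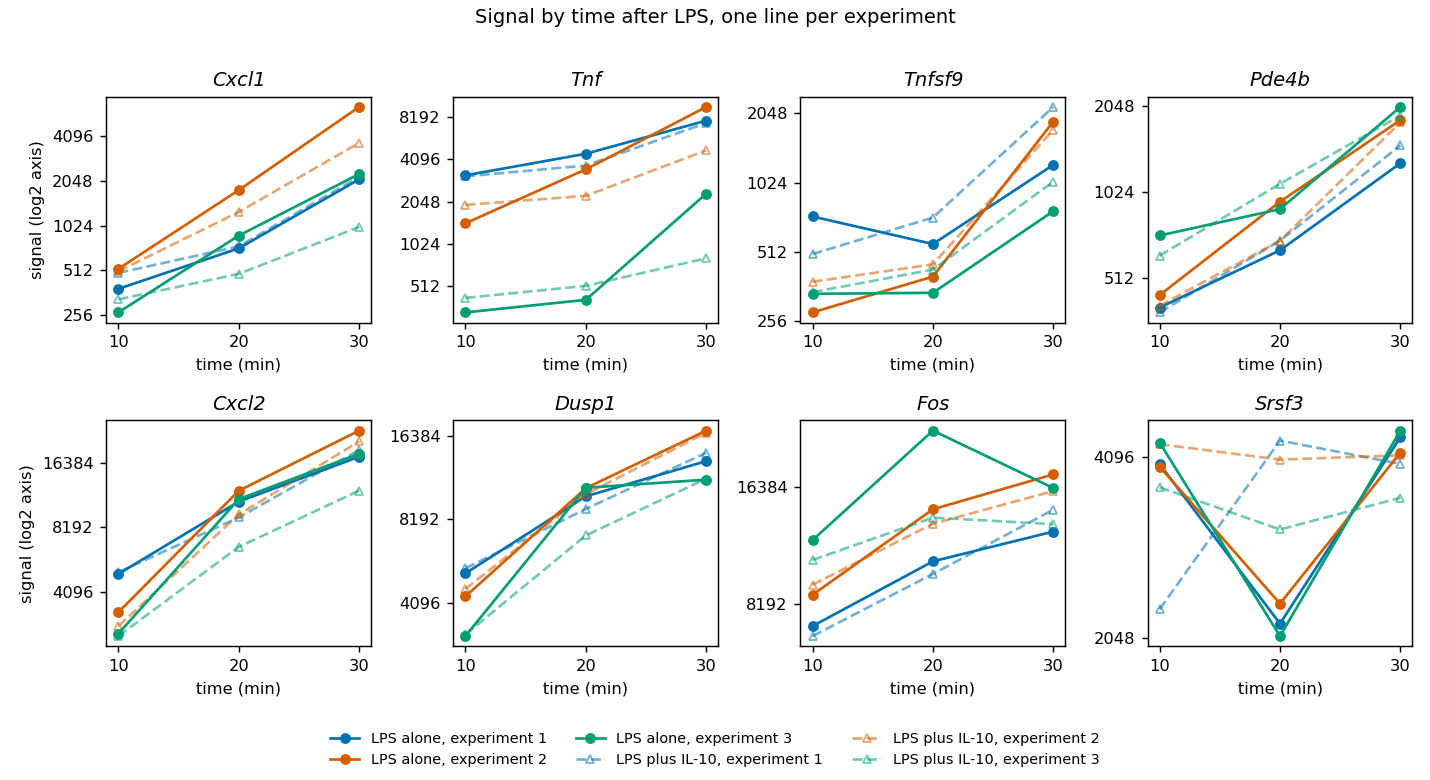
Signal (vertical axes, log2 scale) at 10, 20 and 30 min (horizontal axes) of 8 probe sets, with 1 line per experiment for LPS alone (filled circles, solid) and LPS plus IL-10 (open triangles, dashed). Cxcl1, Tnf, Tnfsf9 and Pde4b are higher at 30 than at 20 min in every experiment, Cxcl2 and Dusp1 with LPS alone climb less in the last step than in the one before, Fos with LPS alone has a 20 min value above its 30 min value in experiment 3 only, and the Srsf3 probe set is lowest at 20 min with LPS alone.

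Of the 4 transcripts that rose past the test, Pde4b differed least between the experiments. It encodes a phosphodiesterase that breaks down cyclic AMP, a messenger that dampens TNF production in macrophages. Its brightest probe set gave 1293, 1832 and 2039 at 30 min, against 639.6, 947 and 892 at 20 min, a clear gap between the groups and a difference of 1.00, 0.94 and 1.18 in experiments 1, 2 and 3. The log2 fold change was 1.04 (SE 0.14, limma adjusted p = 0.0182), after 0.67 from 10 to 20 min. Its other 3 tested probe sets gave -0.21 to 0.26 and none passed, so the call rests on 1 of 4 probe sets. The call was kept in 11 of 20 other settings, with log2 fold changes of 0.93 to 1.18, the most of any transcript named here.

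The phosphatases that switch off MAP kinases and the factors that destabilise inflammatory mRNAs had uneven steps. Dusp1, which acts on p38 and JNK, gave 13262, 17093 and 11368 at 30 min, against 9898, 10595 and 10629 at 20 min. Its values at 20 min were nearly equal between experiments and the last step was small, 0.40 (SE 0.14, limma adjusted p = 0.294), after 1.33 before it. The dimmer Dusp2, a nuclear phosphatase, had its larger step last: 299, 428 and 166 at 30 min, against 144, 174 and 30.2 at 20 min (log2 fold change 1.39, adjusted p = 0.18), after -0.074. Zfp36, which encodes the mRNA decay factor tristetraprolin, was higher at 30 min in each experiment by 0.50, 0.79 and 0.86 (fitted 0.72, limma adjusted p = 0.0723). Its signals were 6387, 9429.9 and 4772, against 4510.2, 5463 and 2618. The list counted here also holds Pde4b, Map3k8, Trib1 and the Spry and Spred genes. Of its 20 tested members 13 were higher and 7 lower with a median of 0.16. Pde4b was the 1 that passed, so no MAP kinase phosphatase or mRNA decay factor in the list did. Spry1, an inhibitor of growth factor signalling, had the lowest value, -1.17, at dim signals of 21.2, 107 and 83.5 at 30 min and 84.1, 259 and 174 at 20 min.

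No feedback gene of NF-kB passed the test, and most had higher fitted values at 30 min. Tnfaip3 encodes A20, which removes ubiquitin chains from signalling proteins upstream of NF-kB, and its brighter probe set gave 4605, 4836 and 1824 at 30 min, against 3305, 2824 and 1101 at 20 min. The difference was 0.66 (limma adjusted p = 0.0956), while its other probe set, also bright, gave 1.47 (adjusted p = 0.108) after -0.062 from 10 to 20 min. Of the 2 Tnfaip3 promoter windows, the one on the minus strand at chr10:19015361-19015660 is shown. It holds 2 matches to the NF-kB type motif, both as the reverse complement, and the letters TATAAA, 225 bases before the start. All are in capitals. The window not shown holds a match to the NF-kB type motif and no TATAAA.
Tnfaip3: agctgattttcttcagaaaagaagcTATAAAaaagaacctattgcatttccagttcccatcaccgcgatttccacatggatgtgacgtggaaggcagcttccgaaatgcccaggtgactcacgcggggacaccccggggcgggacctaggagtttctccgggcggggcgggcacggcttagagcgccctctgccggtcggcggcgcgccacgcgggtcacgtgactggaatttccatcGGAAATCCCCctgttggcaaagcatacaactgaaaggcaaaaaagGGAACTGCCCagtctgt
Nfkbiz, an atypical nuclear inhibitor that also helps to switch on secondary genes, had 3 bright probe sets with differences of 0.78, 1.02 and 0.77, each positive in every experiment (limma adjusted p = 0.0793, 0.179 and 0.179). Traf1, an adaptor of TNF receptors, gave 1020.2, 1906 and 774 at 30 min, against 487, 976 and 509 at 20 min (log2 fold change 0.86, adjusted p = 0.243). Of 22 tested genes in the list of the NF-kB pathway and its feedback, 18 were higher and 4 lower, with a median of 0.14 and none past the test. With both unusual 20 min arrays left out it was 14 and 8, with a median of 0.030. The canonical inhibitor Nfkbia was one of the 4, at -0.29 on its brightest probe set, while its other 4 gave -0.34 to 0.43.

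Immediate early genes held both members with higher values at 30 min and members level with 20 min. Ier2 gave 3477, 2011 and 1437 at 30 min, against 1396, 1083 and 600.4 at 20 min, a gap of 1.14 (SE 0.21, limma adjusted p = 0.0723) after a step of 0.32. Ier3 gave 7109.6, 10288 and 7984, against 4204, 5477 and 4019.7 (0.88, adjusted p = 0.0793), with no overlap for either gene. Btg2, a brake on cell division, gave 1285, 1652 and 1531, against 690.1, 736 and 685 (1.06, adjusted p = 0.239). These 3 genes thus had separate groups and adjusted p-values that missed the threshold. Fos, the partner of Jun in the AP-1 factor, was level: 12596, 17662 and 16289 at 30 min, against 10562, 14369.8 and 22882 at 20 min (0.02, 95% interval -0.32 to 0.36), with values of -0.12 to 0.28 over the other settings. Egr1, a zinc finger factor driven by ERK, was higher at 30 min in experiments 1 and 2 and lower in experiment 3 (1.35, 1.91 and -0.87), the experiment with the highest Egr1 and Fos signals at 20 min. Of 33 tested immediate early genes 23 were higher and 10 lower, with a median of 0.16 and none past the test. Quantile normalisation gave a median of 0.27. Leaving out both unusual 20 min arrays gave 19 and 14 (median 0.086), and leaving out the one of experiment 2 gave 18 and 15. Jun gave 0.49, Junb 0.35 and Gadd45a 0.90, each with the largest difference in experiment 3. Leaving out an experiment or an array gave values down to 0.31 for Jun and 0.40 for Gadd45a, and the other Jun probe set gave 0.098.

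Socs3, which blocks signalling by gp130 cytokines and is a target of STAT3, led the list of SOCS and STAT3 genes. Its brightest probe set gave 1827, 3469 and 1292 at 30 min, against 693, 1119.8 and 841 at 20 min, with no overlap. The 3 Socs3 probe sets gave 1.20, 1.16 and 0.62 (limma adjusted p = 0.0979, 0.0979 and 0.327). The IL-10 receptor chain Il10ra gave 0.52 (its other probe set, -0.95), Socs4 0.51 (its other 3, -0.37 to -0.0093), and Il10 itself 0.69 (adjusted p = 0.179), higher in all 3 experiments. Of 24 tested members 15 were higher and 9 lower, median 0.12, none past the test. The median was 0.028 without the 20 min array of experiment 3, and 0.068 after cyclic loess.

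**Figure D4:**
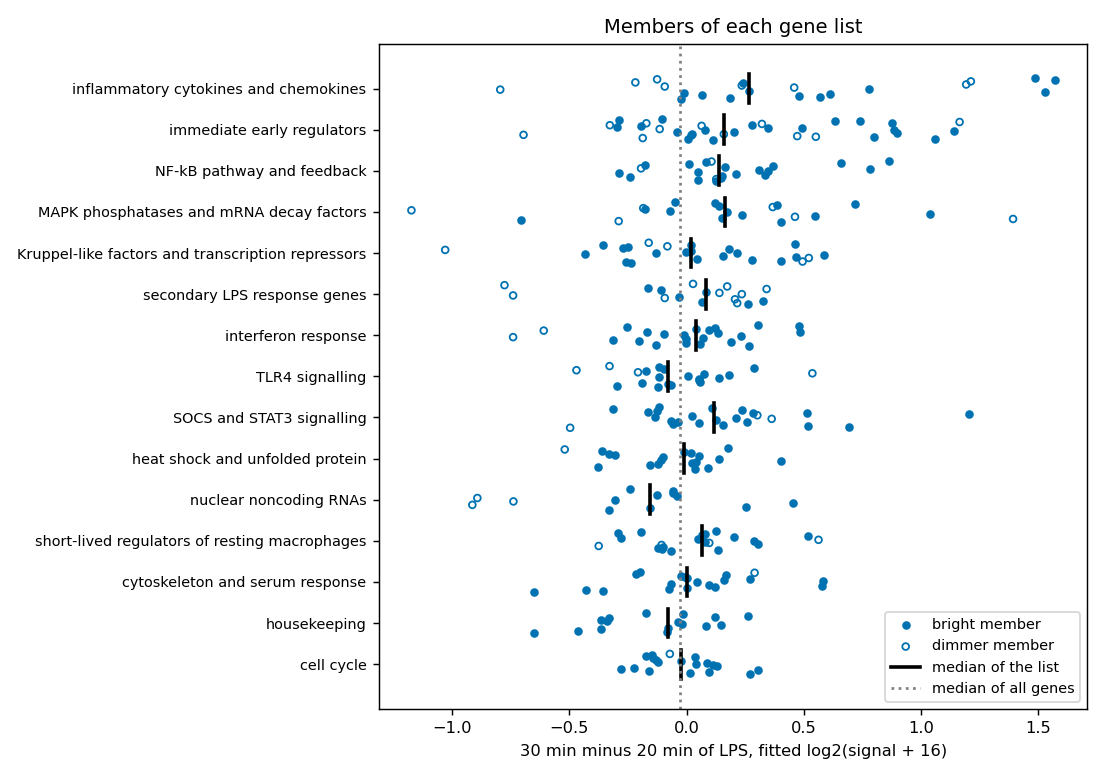
Fitted difference, 30 minus 20 min of LPS (horizontal axis, log2(signal + 16)), for the representative probe set of each member of 15 gene lists (rows), with filled points for bright and open points for dimmer members, a bar at each list's median and a dotted line at the median of all genes, -0.028. Among the 15 lists as fitted, the inflammatory list has the highest median, 0.26, and the nuclear noncoding RNAs the lowest, -0.16. With both unusual 20 min arrays left out, the highest is that of the list headed MAP kinase phosphatases and mRNA decay factors, 0.23, and the lowest that of the housekeeping genes, -0.19. The former list also holds Pde4b, Map3k8, Trib1 and the Spry and Spred genes.

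Counted experiment by experiment, 27 bright probe sets were higher at 30 min by at least 0.5 in every experiment, 0.24% of the 11260, and 2 were lower by as much, 0.0178%. Among the 15850 dimmer ones it was the other way round, 135 (0.852%) higher and 514 (3.24%) lower. The 27 fell into 3 kinds by what came before. In 12 probe sets of 9 genes the signal had already been higher at 20 than at 10 min in every experiment: Cxcl1, Tnf, Socs3, Pde4b, Nfkbiz, Ier3, Traf1, Cxcl2 and Zfp36. Their median difference over the whole 20 min was 1.86. In 7, among them Tnfsf9, Tnfaip3, Ier2, Btg2 and 1 of 6 probe sets of the ribosomal protein gene Rps10, the earlier step was mixed. In the remaining 8, of 8 genes, the 20 min arrays were lower than the 10 min arrays in every experiment. The median difference between 30 and 10 min was 0.099. Their low point at 20 min is how they were sorted and no separate result, since both steps share the 20 min arrays. The share of each kind over all bright probe sets was not counted. From 10 to 20 min 309 bright probe sets were higher and 697 lower at an unadjusted limma p under 0.05.

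The low point was clearest for a probe set of Srsf3, which encodes a splicing factor of the SR family. It gave 3979, 3942 and 4320.1 at 10 min, 2162, 2335 and 2062 at 20 min and 4410.0, 4159 and 4522 at 30 min. The 3 low values at 20 min lay far below the other 6 and were close to each other. The difference between 30 and 20 min was 0.99 (SE 0.16, limma adjusted p = 0.0509), and the contrast between the steps was 1.89 (adjusted p = 0.0655), the smallest adjusted p of that contrast. The zinc finger gene Zfp991 gave 1524, 1263 and 1569 at 30 min, against 755, 699 and 770.0 at 20 min, and 1325, 1426 and 1292 at 10 min. It was as even (0.95, adjusted p = 0.0718). The others were Zfp931, another zinc finger gene (0.95), Polr3k, a subunit of RNA polymerase III (1.12), Nxt2, an mRNA export factor (0.84), Ttc3, a ubiquitin ligase (0.83), Plscr1, a phospholipid scramblase (0.80), and Anxa4, an annexin (0.61).

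Other measurements stand beside this low point. The probe sets are seldom the only ones of their genes: the other 5 of Srsf3 gave 0.0073 to 0.48 the other 3 of Polr3k -0.021 to 0.25, the other pair of Zfp991 -1.08 to 0.086 and that of Anxa4 -0.17 to 0.68. Of the 8 probe sets 5 (62.5%) carry the suffix x, which marks probes that can bind other transcripts too, against 8.37% of bright probe sets, and whether such binding plays a part was not tested. For some of the 8, values as low also occurred with LPS plus IL-10. For Srsf3 this was 2285 on the array of LPS plus IL-10 for 10 min in experiment 1, where Zfp931 was at 486 as well. At 10 min of experiment 2 Zfp991 was at 723, and Ttc3 had its lowest signal of all, 262, at 30 min of experiment 1. For Plscr1 and Anxa4, by contrast, the 3 lowest of all 18 arrays were those of LPS alone for 20 min. None of the 8 met the same criterion in the LPS plus IL-10 arrays, where their median difference between 30 and 20 min was 0.026.

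**Figure D5:**
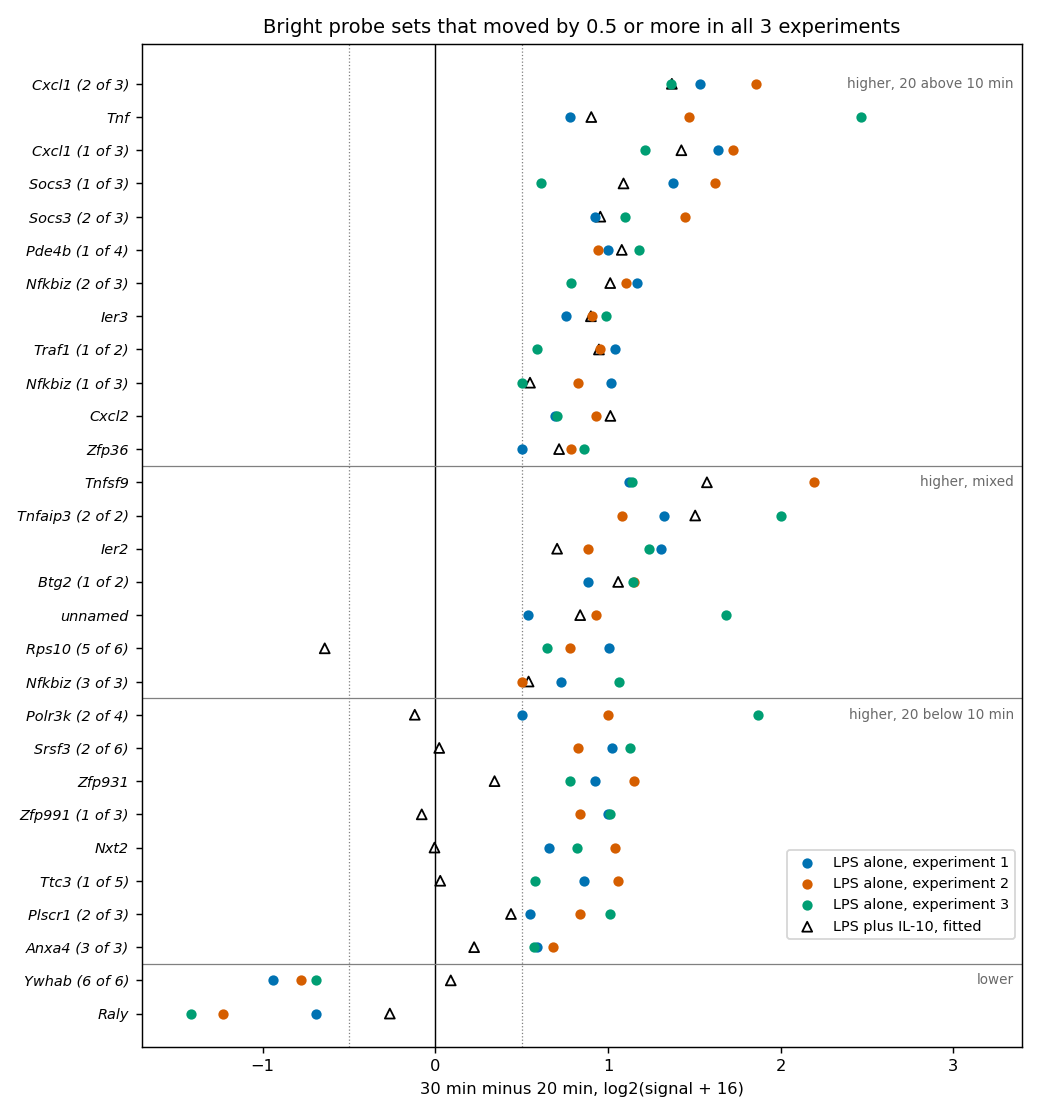
Difference, 30 minus 20 min of LPS (horizontal axis, log2(signal + 16)), in experiments 1, 2 and 3 (filled points) for the 29 bright probe sets (rows) that moved by at least 0.5 in every experiment, with the fitted difference under LPS plus IL-10 as an open triangle. The upper blocks are the 27 higher ones, by what the step from 10 to 20 min had been, and the triangles of the 8 probe sets with their low point at 20 min lie between -0.12 and 0.44.

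Bright probe sets with lower signals at 30 min were few. Raly, which encodes an RNA-binding protein, gave 364, 261 and 368 at 30 min, against 597, 634 and 1006 at 20 min, and Ywhab, a 14-3-3 protein, 300.1, 700.2 and 611, against 591, 1213 and 996 on its dimmest probe set. With LPS alone both were highest at 20 min in every experiment, as their 10 min signals were 445, 361 and 342 for Raly and 275, 599.9 and 719 for Ywhab. Both steps share the 20 min arrays, so this peak is no separate result. With LPS plus IL-10 the differences between 30 and 20 min were -0.26 for Raly and 0.090 for Ywhab. Neither gene passed with LPS alone (log2 fold changes -1.11 and -0.80, limma adjusted p = 0.179 and 0.301). The Ywhab probe set carries the suffix x, and the other 5 gave -0.26 to 0.35. After these, the bright genes that stood out by their least changed experiment were Tatdn2 (-0.70), a probe set of the forkhead factor Foxp1 (-0.62), Golga3 of the Golgi (-0.50) and the lipid kinase Pip4k2b (-0.48), with no overlap between 30 and 20 min in any of the 4 and adjusted p-values of 0.179 to 0.261. The other 7 Foxp1 probe sets gave -0.29 to 0.80 and the other of Golga3 0.052.

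Nlrp6 was the 1 transcript that fell past the test, and it was dim. This gene of the NOD-like receptor family is best known from intestinal epithelium. Its signals were 2.6, 7.4 and 8.9 at 30 min, against 97, 175 and 219 at 20 min and 49.8, 50.2 and 77.2 at 10 min, so the 3 arrays at 30 min were at the bottom of the scale and those at 20 min the highest of the LPS arrays. Among the arrays of LPS alone only those at 20 min were at or above the array median, so Nlrp6 entered the test through the group where it was high, and its fold is taken against signals near the floor. The log2 fold change was -2.96 (SE 0.41, limma adjusted p = 0.0182). It was -2.60 in experiment 1, whose 20 min array has no raised low end, and -3.03 and -3.24 in the other two. With pseudocounts of 1 and 64 in place of 16 it was -4.54 and -1.66. With LPS plus IL-10 the difference was -0.32, and no detection calls were used here. Klf5, a Kruppel-like transcription factor, was dim as well, at 52.3, 86.4 and 68.2 at 30 min, against 99.7, 209 and 177 at 20 min (-1.03, adjusted p = 0.227).

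Of 13 tested nuclear noncoding RNAs 2 had higher and 11 lower fitted values at 30 min, with a median of -0.16 and none past the test. Without both unusual 20 min arrays it was 6 and 7 (median -0.022). With only that of experiment 2 left out it was 3 and 10 (-0.092), and with only that of experiment 3, 5 and 8 (-0.15). Quantile normalisation and cyclic loess left it at 2 and 11 (-0.16 and -0.17). The cause of these shifts was not tested. Neat1, the scaffold of paraspeckles, gave 2102, 3566 and 3224 at 30 min, against 3256, 3483 and 4044 at 20 min (-0.31), after a larger step of -0.52 from 10 to 20 min. Mir22hg, the host transcript of a microRNA, had the highest value of the list, with 2723, 2756 and 2680.3 at 30 min, against 2206, 1996 and 1772 at 20 min, no overlap and an adjusted p of 0.179. Of the 17 tested genes listed as secondary response, Ifnb1 and Ccl5 among them, 11 were higher, with a median of 0.081 and none past the test. Whether each needs new protein was not tested. Without both unusual arrays 8 were higher and 9 lower (median -0.064). Interferon response genes were balanced (12 higher and 11 lower, median 0.040), and their sign turned to -0.0061 after quantile normalisation and to -0.19 without both unusual arrays. Irgm1, an interferon-inducible GTPase, and Stat2 had the largest values, both 0.48, both after a lower 20 min value (-0.45 and -0.87 from 10 to 20 min). Leaving out an experiment or an array gave values down to 0.26 and 0.28, and the other Stat2 probe set gave -0.13. TLR4 signalling genes (9 higher and 12 lower, median -0.079) had none past the test, and without both unusual arrays 11 were higher and 10 lower (median 0.0075).

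The brightest transcripts of all differed between the experiments. Actb, Lyz1 and B2m, which encode actin, lysozyme and the light chain of MHC class I, had differences of -0.65, -0.64 and -0.46 on their brightest probe sets, but in experiment 2 these were 0.03, 0.063 and 0.096. The other Actb probe set gave 0.030, the other 2 of Lyz1 -0.82 to 0.079 and the other of B2m -0.43. For the brightest Actb probe set the signals were 27503, 33459.5 and 24874 at 30 min, against 43822, 32780.2 and 61640.2 at 20 min, the last of these the highest on any array. The brightest 1 percent of probe sets, 272 in number, had median differences of -0.304, 0.102 and -0.821 in experiments 1, 2 and 3. Housekeeping genes were 4 higher and 12 lower (median -0.080), which turned to 12 and 4 (0.071) after quantile normalisation. Their median was -0.19 without both unusual arrays. Macrophage markers were 3 higher and 15 lower (-0.16), and 9 and 9 (0.022) after quantile normalisation. They were still mostly lower after cyclic loess, 5 and 13 (-0.081), and without both unusual arrays, 2 and 16 (-0.15). The summed macrophage marker signal was 284805 to 368342 at 30 min and 347953 to 474354 at 20 min.

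No probe set passed the test of a difference between LPS alone and LPS plus IL-10 in the last 10 min. The contrast between the LPS and the LPS plus IL-10 differences had 0 calls among 27110 probe sets (limma, smallest adjusted p = 0.247), with 1400 at an unadjusted p under 0.05, against 1355.5 expected by chance. For Pde4b the difference between treatments was -0.041 (95% interval -0.46 to 0.38), for Cxcl1 0.22 (-0.50 to 0.93), for Tnfsf9 -0.089 (-0.80 to 0.62) and for Tnf 0.67 (-0.019 to 1.36). The interval of Tnf is wide and reaches differences larger than 1 log2 unit. Of the 27 bright probe sets higher in every experiment with LPS alone, 14 were so with LPS plus IL-10 too, 51.9% of the 27 and 46.7% of the 30 found there. The 14 included 10 of the 12 whose 20 min arrays had been above the 10 min arrays.

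The change of pace, the last step minus the one before, had 0 calls as well (limma, smallest adjusted p = 0.0655, 3794 at an unadjusted p under 0.05). A further look took its probe sets from the LPS plus IL-10 arrays. These come from the same 3 experiments and entered the same fit, so they are no independent support. With LPS plus IL-10, 19 bright probe sets of 15 genes were higher at 20 than at 10 min by at least 0.5 in every experiment. With LPS alone, 12 of these 19 were then higher at 30 than at 20 min in all 3 experiments, 1 was lower in all 3 and 6 were mixed, while 17.2% of all bright probe sets were higher and 11% lower in all 3. All 3 Socs3 probe sets were among the 12, so the 12 are not separate genes. The 1 lower was Sbno2, a co-repressor gene that IL-10 induces, at 309, 441 and 350.5 at 30 min, against 481, 494 and 437 at 20 min on its brightest probe set. Its other 3 gave -0.66 to 0.24, and the one of them among the 19 was mixed. A probe set of Etv3, which encodes an ETS-family repressor, was among the 12, at 913, 1268 and 577, against 653, 672 and 446 (0.58, adjusted p = 0.217), while the other 3 gave -0.049 to 0.042. Of the 14 named genes with a bright probe set higher in every experiment and no low point at 20 min, 11 had a promoter window in the RefSeq table. The NF-kB type motif stood in 3 (Cxcl1, Cxcl2 and Tnfaip3), the cyclic AMP response element TGACGTCA in 1 (Btg2; 1.79% of all windows), TATAAA in 2 (Tnf and Tnfaip3), and the serum response factor type, CC, any base, TAT, any 2 bases, GG, in none (1.54% of all windows). A gene counted where any of its windows matched, with 2 windows for Tnfaip3 and 4 for Pde4b. The shares are per window, so they are not on the same footing as the gene counts. A match describes the letters and not a site in use.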

How the data were processed

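The deposited values were linear intensities of single-colour arrays, made by the authors with GCOS 1.4 per the submitters' processing notes, from 5 ug of total RNA per array per the labels' protocols; the signal algorithm was not given in the sources used here. The trimmed mean was 500 on every array, so a change in total RNA cannot be seen. Of 45101 probe sets, 64 controls were set aside, 34945 carried 1 gene symbol in the platform annotation, 932 several and 9160 none, and only the first kind were named. Probe sets at or above the array median on at least 3 arrays were tested (27110), as log2(signal + 16), with limma 3.58.1 in R 4.3.3 (lmFit, eBayes with an intensity trend, all 18 arrays, 10 residual degrees of freedom, two-sided). A pseudocount of 16 understates the fold changes of dim probe sets. The deviations from group means correlated at 0.201 to 0.642 for arrays of the same experiment in different groups and at -0.471 to 0.0651 otherwise, and the labels make each number an experiment, so the number was the block. The precision is limited by 3 arrays per group.

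A gene stands for its probe set with the highest mean level unless another is named. Named were the called genes, then bright probe sets with the largest smallest-experiment difference, up to 10 genes per direction, then up to 4 members of each list by size, and a panel of cytokine and feedback genes; other members of the sets counted experiment by experiment, Rps10, and the very bright genes were named after their values were seen. The comparison, the lists and the panel were chosen with earlier results of these data known, so they are no independent support. Promoter windows came from RefSeq. The fit was tested on simulated data. Other settings were no block, quantile normalisation, cyclic loess (added after seeing the data), pseudocounts of 1 and 64, other filters, array weights, no trend, fewer arrays, and leaving out arrays.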

Additional observations from a re-analysis of the deposited data

Results flagged for a closer look

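In 3 named probe sets every experiment went one way from 20 to 30 min with LPS alone and the opposite way with LPS plus IL-10. In none did the test of that difference pass. Only the 73 named probe sets were searched, and Rps10 was named after its values were seen. The share of such opposite signs over all tested probe sets was not counted, so the 3 are not shown to exceed it. For Spry1, an inhibitor of growth factor signalling, the fitted difference was -1.17 with LPS alone and 1.06 with LPS plus IL-10, and the contrast between them was -2.24 (SE 0.60, limma adjusted p = 0.915) at dim signals. For Sbno2, a co-repressor gene that IL-10 induces, the values were -0.36 and 0.64, with a contrast of -1.001 (SE 0.24, adjusted p = 0.898), and its other 3 probe sets gave -0.66 to 0.24 with LPS alone. For the fifth-brightest of 6 probe sets of the ribosomal protein gene Rps10 they were 0.81 and -0.64, with a contrast of 1.45 (SE 0.38, adjusted p = 0.915), while its other 5 probe sets gave -0.37 to -0.065 with LPS alone.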

How the results depend on the processing

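The count of probe sets that differed between 30 and 20 min of LPS depended on the setting. It was 5 as reported, 0 with no replicate block, 3 after quantile normalisation, after cyclic loess or with a filter at the 75th percentile, 2 with only the arrays of the groups compared, 9 with array quality weights, 1 with no intensity trend, 4 and 6 with pseudocounts of 1 and 64, and 7 with no filter. Leaving out an experiment or an array gave 0 to 24. With the unusual 20 min arrays of experiments 2 and 3 both left out it was 4, of which 0 were shared with the 5, and the log2 fold changes there were 2.05 for Cxcl1, 1.42 for Tnf, 1.52 for Tnfsf9, 1.11 for Pde4b and -2.60 for Nlrp6, none past the threshold. The lone 20 min array is then assumed to vary like the other groups. Over the alternatives Pde4b passed in 11 of 20, Tnf in 10, Cxcl1 in 9, Tnfsf9 in 4 and Nlrp6 in 9 of 19, all with the direction kept. The change of pace had 0 calls as reported, 7 with a filter at the 75th percentile (Srsf3, Zfp991 and Zfp931 among them), 1 with only the arrays of the groups compared (Srsf3), 10 with both unusual arrays left out, and 0 to 48 on leaving out an experiment or an array, the 48 without the 20 min array of experiment 1. The contrast with LPS plus IL-10 had 0 calls under all 20 alternatives. Of the single genes named, Fos and Junb changed sign: leaving out an experiment or an array gave -0.118 to 0.276 for Fos and -0.0177 to 0.576 for Junb. All other named probe sets kept their direction under every alternative run. In 28 of the 73 named probe sets leaving out an experiment or an array moved the log2 fold change by over 1.5 times. The causes of these shifts were not tested. With 3 arrays per group and no detection calls, differences at low signal are the least certain.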
